A study of Pagiophloeus tsushimanus with 15 samples.

Results

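The unigenes described here are the immune recognition proteins, serpins, lysozymes and antimicrobial peptides of Pagiophloeus tsushimanus, a weevil whose larvae were fed diets with or without terpenoids. A unigene is an assembled transcript cluster, named by its identifier and by the description of its most similar protein in another animal. Members were taken by words in that description: peptidoglycan, beta-1,3-glucan-binding, serpin, lysozyme, defensin, attacin, coleoptericin, antimicrobial peptide, antibacterial peptide, protein toll, spaetzle or C-type lectin. These words found 30 of the 34486 unigenes in the table. RNA came from whole bodies, in 15 libraries of 3 per diet: an untreated diet, diets with 10 or 30 mg/g of an additive named EO, and diets with 17 or 41 mg/g of D-camphor, a monoterpenoid ketone. The labels give no age, instar or sex of the larvae, and do not say whether a library holds 1 animal or a pool or whether replicates were reared separately, so p-values measure only the spread between these libraries. What EO stands for is not spelled out there. Values are in TPM, a level per transcript length that can be compared between genes but keeps no read depth, so depth is unknown.

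Insects have no antibodies and rely on germline-encoded recognition. Peptidoglycan recognition proteins bind bacterial cell wall, beta-1,3-glucan-binding proteins bind fungal wall, and C-type lectins bind sugars. Recognition leads, through clip-domain proteases that serpins hold in check, to cleavage of Spaetzle, the ligand of the receptor Toll, or to the IMD pathway. Both pathways switch on lysozymes and antimicrobial peptides, largely in the fat body and in haemocytes, the blood cells. In RNA from whole bodies, fewer cells of a type and less RNA per cell cannot be told apart.

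The 30 members were mostly recognition and Toll pathway unigenes. There were 5 found by peptidoglycan, 3 by beta-1,3-glucan-binding, 2 by C-type lectin, 7 by protein toll, 2 by spaetzle, 3 by serpin, 6 by lysozyme and 2 by antimicrobial peptide. Defensin, attacin, coleoptericin and antibacterial peptide occurred in 0 descriptions. The best match was a weevil or bark beetle for most members (13 Sitophilus, 8 Dendroctonus and 3 Rhynchophorus) and a sap beetle for 1 (Aethina). The other 5 matched a starfish, a lancelet, a flea, an amphipod and an aphid, and all 5 had a mean under 1 TPM. Of the 30, 16 averaged 1 TPM or more across the libraries and were tested. The member just above that limit is the antimicrobial peptide TRINITY_DN42713_c0_g1 at 1.27 TPM, and the one just below it is the lysozyme-like TRINITY_DN9412_c0_g1 at 0.887 TPM. The antimicrobial peptide and serpin parts of the name therefore rest on 1 tested member and 0 tested members.

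Levels spanned a wide range among the members. Of all 30, the highest mean levels belonged to a pair of beta-1,3-glucan-binding protein-like unigenes, TRINITY_DN5761_c1_g1 at 817 TPM and TRINITY_DN38976_c2_g1 at 718 TPM. Peptidoglycan recognition protein S1 (TRINITY_DN3732_c0_g1) followed at 74.0 TPM, then the C-type lectin 37Db-like TRINITY_DN144_c0_g1 at 34.0 TPM. The 14 members that were not tested had means of 0.0847 to 0.887 TPM.

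None of the 16 tested members passed the threshold (adjusted p of 0.05) on any diet, and much of their variation lay between libraries of the same diet. With limma, adjusted over all 12510 tested unigenes, 0 of 16 were called against untreated larvae on EO at 10 mg/g, where 0.0719% of all tested unigenes were called. The count was also 0 of 16 on EO at 30 mg/g (0.184% of all), D-camphor at 17 mg/g (0.04%), D-camphor at 41 mg/g (0.016%) and for the mean of the 4 terpenoid diets (0.0879%). At an unadjusted p under 0.05 limma found 0, 1, 0, 0 and 0 of the 16 in these comparisons, in the same order, where 6.31%, 8.8%, 6.24%, 6.24% and 6.15% of all tested unigenes passed. Terpenoid and untreated libraries did not overlap for 0, 0, 1, 0 and 0 of the 16, against 9.95%, 10.2%, 11.1%, 9.95% and 0.472% of all. The 1 was the glucan-binding TRINITY_DN38976_c2_g1 on D-camphor at 17 mg/g. The share of the variation over the libraries that lay between diets had a median of 23.2% for the 16, against 31.6% for all tested unigenes. This share is not corrected for fitting 5 means to 15 libraries. It is therefore well above 0 even where diets do not differ, and is not a measure of a diet effect. The median SD within a diet was 0.41 log2 units for the 16 and 0.264 for all.

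The estimates leaned to lower levels on terpenoid diets, as did those of the table as a whole. Against untreated larvae the median log2 fold change of the 16 was -0.26 on EO at 10 mg/g, -0.15 on EO at 30 mg/g, 0.03 on D-camphor at 17 mg/g and -0.14 on D-camphor at 41 mg/g. The medians of all tested unigenes were -0.12, -0.06, 0.03 and -0.04. For the mean of the 4 diets, 13 of 16 members (81.2%) had a negative estimate, against 61.4% of all tested unigenes. Without untreated replicate 3 this count was 7 of 16 (42.8% of all), and with median-of-ratios scaling it was 9 of 16 (46.9% of all). The 4 diets share the untreated libraries, so their estimates are not independent.

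**Figure D1:**
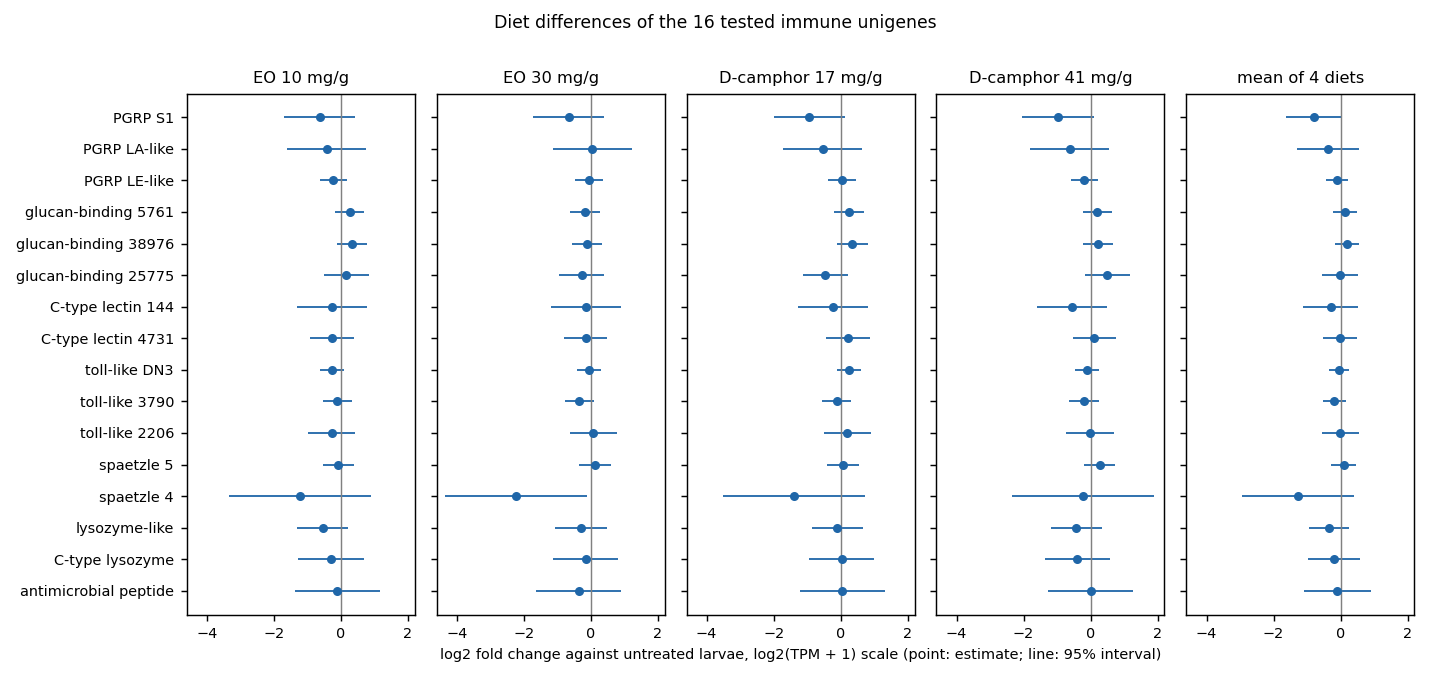
Log2 fold change of each of the 16 tested immune unigenes against untreated larvae (x axis, log2(TPM + 1) scale; points are estimates and lines 95% intervals) on the 4 diets and for their mean. All intervals cross 0 except that of spaetzle 4 on EO at 30 mg/g, whose unadjusted p is 0.0396 and adjusted p 0.548 by limma.

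Among the peptidoglycan recognition proteins, which bind bacterial wall, S1 had the lowest estimates on terpenoid diets. Peptidoglycan recognition protein S1 (TRINITY_DN3732_c0_g1) stood at 59.3, 92.2 and 205 TPM in untreated larvae, at 66, 63.9 and 70.05 on EO at 10 mg/g, at 120.4, 30.2 and 76.0 on EO at 30 mg/g, at 49.8, 46.5 and 67.4 on D-camphor at 17 mg/g and at 40.1, 77.5 and 46.2 on D-camphor at 41 mg/g. Untreated replicate 3 was the highest of all 15 libraries, and each diet overlapped the other 2 untreated values. Its log2 fold change was -0.94 (95% interval -2.0 to 0.13) on D-camphor at 17 mg/g and -0.97 (-2.04 to 0.09) on D-camphor at 41 mg/g, with adjusted p of 0.828 and 0.88 by limma. For the mean of the 4 diets it was -0.80 (SE 0.39, adjusted p = 0.805 by limma), and -0.32 (SE 0.39) without untreated replicate 3.

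The LA-like peptidoglycan recognition protein (TRINITY_DN569_c1_g1), whose Drosophila namesake is a transmembrane protein that modulates the IMD pathway, also peaked in that library. It stood at 13.7, 15.03 and 68.1 TPM in untreated larvae, at 33.2, 12.3 and 13.8 on EO at 10 mg/g, at 37.6, 21.3 and 19.8 on EO at 30 mg/g, at 17.02, 13.7 and 19.0 on D-camphor at 17 mg/g and at 21.1, 15.6 and 11.2 on D-camphor at 41 mg/g. After untreated replicate 3, the next highest libraries were EO 30 mg/g replicate 1 and EO 10 mg/g replicate 1. The estimate for the mean of the 4 diets was -0.38 (SE 0.43) and turned to 0.34 (SE 0.34) without untreated replicate 3, with an adjusted p of 0.903 and 0.925 by limma. The LE-like member (TRINITY_DN5154_c0_g1), named for an intracellular sensor of Drosophila, ranged from 1.62 to 4.08 TPM with its highest value in the same library. A second LA-like unigene (TRINITY_DN17818_c0_g3) stood at 1.93 TPM there and at most at 1.16 TPM in the 12 terpenoid libraries. The fifth unigene found by the word peptidoglycan, TRINITY_DN14622_c0_g1, is not described as a recognition protein. Its description is a LysM and putative peptidoglycan-binding domain protein. It is listed at 0 in 6 libraries and reached 0.52 TPM.

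The abundant glucan-binding pair gave no call on any diet. TRINITY_DN5761_c1_g1 ranged from 535 to 948 TPM and TRINITY_DN38976_c2_g1 from 449 to 874 TPM. The level of the second was 0.768 to 0.969 times that of the first in all 15 libraries, so the pair may share reads and the level of each is uncertain. Untreated replicate 3 (535 and 474 TPM) and EO 30 mg/g replicate 1 (584 and 449 TPM), both high in peptidoglycan recognition protein S1, were among their 3 lowest libraries. The other was EO 30 mg/g replicate 2 (582 and 564 TPM), where S1 was at its lowest. Between the doses of EO, where 0 of 16 members were called (0.00799% of all) 0 of 16 had an unadjusted p under 0.05 (4.97% of all) and 0 of 16 had groups that did not overlap (8.55% of all), the pair had the smallest unadjusted p of the 16, 0.0522 and 0.0516. The difference of 30 from 10 mg/g was -0.44 log2 units (95% interval -0.88 to 0.00485) for TRINITY_DN5761_c1_g1 and -0.45 (-0.91 to 0.00368) for TRINITY_DN38976_c2_g1, with an adjusted p of 0.998 for each by limma.

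The remaining glucan-binding unigene, TRINITY_DN25775_c0_g1, had the smallest p of the members between the D-camphor doses and in the comparison of the dose steps. It stood at 9.64, 16.4 and 13.4 TPM in untreated larvae, at 23.6, 10.7 and 12.0 on EO at 10 mg/g, at 11.8, 10.9 and 8.87 on EO at 30 mg/g, at 10.52, 7.09 and 9.90 on D-camphor at 17 mg/g and at 12.3, 24.1 and 21.2 on D-camphor at 41 mg/g. The 3 libraries of D-camphor at 41 mg/g lay above all 3 at 17 mg/g. The difference was 0.96 log2 units (SE 0.31, 95% interval 0.29 to 1.62, unadjusted p = 0.00892, adjusted p = 0.359 by limma). In this comparison 0 of 16 members and 0% of all tested unigenes were called, 1 of 16 and 9.51% of all had an unadjusted p under 0.05, and 3 of 16 and 21.4% of all had groups that did not overlap. Cuticle and moult markers (65 unigenes, summed) were also high in its 3 highest libraries. They stood at 33600 TPM in EO 10 mg/g replicate 1, 22000 in D-camphor 41 mg/g replicate 2 and 8390 in D-camphor 41 mg/g replicate 3, against 1330 to 5130 on D-camphor at 17 mg/g, though EO 30 mg/g replicate 1 had 17800 with 11.8 TPM of the glucan-binding unigene. The part of the cuticle genes in this difference was not tested.

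The estimated dose step of this unigene was negative for EO and positive for D-camphor. The difference between the steps was -1.39 log2 units (SE 0.43, unadjusted p = 0.00739, adjusted p = 0.264 by limma), and -0.96 (adjusted p = 0.6) when the 3 libraries with the highest scores on the first principal component were left out, namely the first replicate at each EO dose and the second at 41 mg/g of D-camphor. Here 0 of 16 members and 0% of all were called, with 2 of 16 and 11.6% of all at an unadjusted p under 0.05. The other of these 2 was the toll-like TRINITY_DN3_c0_g1, at 0.56 log2 units (SE 0.24, adjusted p = 0.39 by limma). The doses of the additives differ, so the steps are not matched.

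C-type lectins, secreted or membrane proteins that bind sugars, showed no call. The 37Db-like TRINITY_DN144_c0_g1 ranged from 13.8 to 61.1 TPM, with both ends of that range on EO diets: 13.8, 60.7 and 35.0 at 10 mg/g and 28.9, 21.9 and 61.1 at 30 mg/g. Untreated larvae, at 35.8, 48.4 and 29.9 TPM, lay inside. The other 37Db-like unigene, TRINITY_DN4731_c0_g1, ranged from 7.25 to 19.3 TPM, highest in untreated replicate 3.

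**Figure D2:**
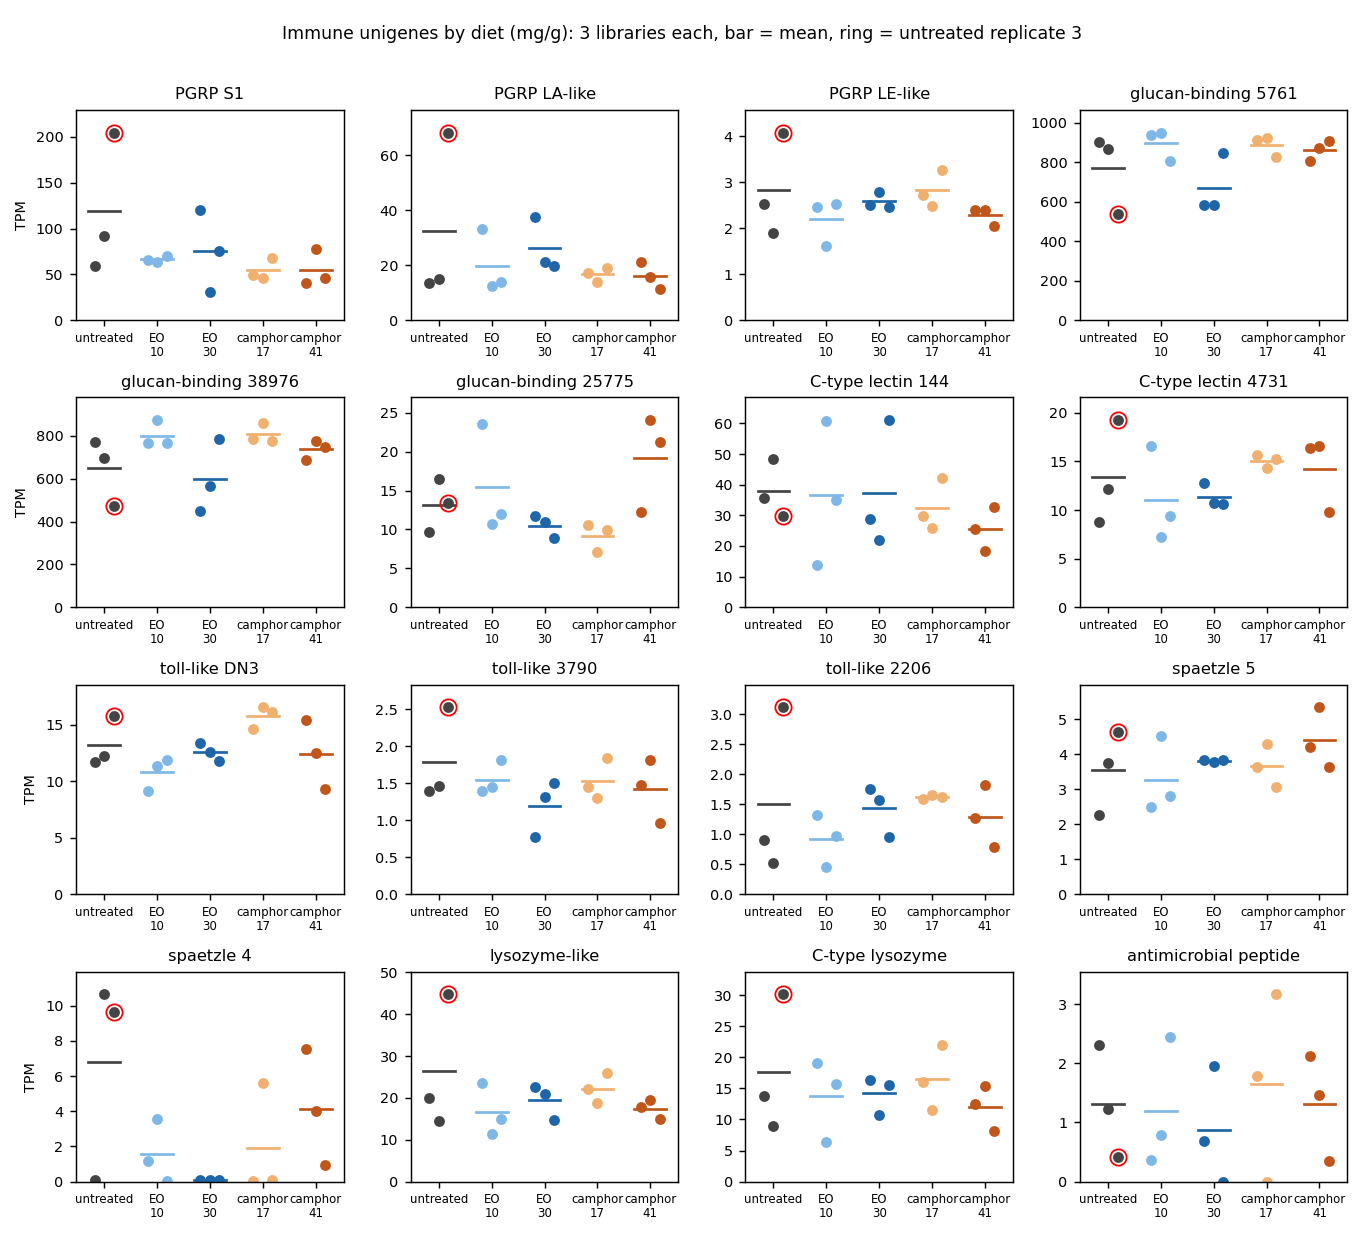
TPM of the 16 tested immune unigenes (1 panel each, y axis from 0) in the 3 libraries of each diet (points; bars are means), with untreated replicate 3 ringed in red. The ringed library is the highest of 15 in 8 panels.

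Of the ligands of Toll-family receptors, spaetzle 4 had the widest spread. Protein spaetzle 4 (TRINITY_DN11168_c0_g1) stood at 0.06, 10.7 and 9.67 TPM in untreated larvae, at 1.16, 3.53 and 0.04 on EO at 10 mg/g, at 0.08, 0.07 and 0.08 on EO at 30 mg/g, at 0.02, 5.60 and 0.06 on D-camphor at 17 mg/g and at 7.52, 3.99 and 0.94 on D-camphor at 41 mg/g. Values lay either at or below 0.08 TPM or at or above 0.94 TPM, with both kinds in untreated larvae. On EO at 30 mg/g all 3 libraries were at the low end, but so was untreated replicate 1. The log2 fold change there was -2.24 (SE 0.97, 95% interval -4.36 to -0.13, unadjusted p = 0.0396, adjusted p = 0.548 by limma). The estimate rested on single libraries: it was -3.37 (adjusted p = 0.116 by limma) without untreated replicate 1, but -1.64 (unadjusted p = 0.15 by limma) without replicate 2 and -1.71 (unadjusted p = 0.144 by limma) without replicate 3. Without any 1 of the EO 30 mg/g libraries the unadjusted p was 0.0733 to 0.0742 by limma.

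A peroxidasin-like haemocyte marker, singled out after its values were seen, was high in the same libraries as spaetzle 4. Of the other haemocyte markers, both phenoloxidases were high in most of these libraries. Of the words fixed for haemocytes, only peroxidasin and phenoloxidase matched, in 4 unigenes, and hemocytin, hemolectin, nimrod, eater, croquemort, lozenge and serpent matched 0. The summed level of the 4 was 212, 457 and 358 TPM in untreated larvae and 173, 221 and 237 TPM on EO at 30 mg/g. The peroxidasin-like TRINITY_DN3052_c0_g1, a secreted peroxidase of the extracellular matrix, stood at 0.91, 84.7 and 44.8 TPM in untreated larvae, at 5.26, 15.6 and 1.59 on EO at 10 mg/g, at 2.57, 1.26 and 7.34 on EO at 30 mg/g, at 2.32, 27.4 and 3.86 on D-camphor at 17 mg/g and at 52.1, 22.6 and 5.69 on D-camphor at 41 mg/g. Its 6 highest libraries were the 6 highest for spaetzle 4. The other peroxidasin, TRINITY_DN816_c0_g2, did not share this pattern: it ranged from 8.6 to 12.54 TPM and was higher in untreated replicate 1 (12.25 TPM) than in untreated replicate 3 (10.68 TPM). The phenoloxidases TRINITY_DN8664_c0_g1 and TRINITY_DN7223_c0_g1 stood at 136, 231 and 204 TPM and at 62.7, 129 and 98.9 TPM in untreated larvae. In D-camphor 41 mg/g replicates 1 and 2 they stood at 218 and 191 TPM and at 116 and 102 TPM. In D-camphor 17 mg/g replicate 2, also high in spaetzle 4, they stood at 164 and 78.1 TPM, below replicate 3 of that diet (184 and 89.8 TPM). The part of these unigenes in the spaetzle 4 levels was not tested. Protein spaetzle 5 (TRINITY_DN527_c0_g1), whose Drosophila namesake is a neurotrophin, stayed between 2.26 and 5.35 TPM.

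The 7 toll unigenes among the members are all described as protein toll-like, after the receptor of Spaetzle. Of these, 5 share 1 description, isoform X2 of Sitophilus oryzae, which does not tell whether they are pieces of 1 transcript or separate genes. Among these 5, the level of TRINITY_DN3790_c0_g1 was 0.0575 to 0.16 times that of TRINITY_DN3_c0_g1, and their log2 levels correlated at 0.366. The most abundant, TRINITY_DN3_c0_g1, stood at 11.7, 12.2 and 15.8 TPM in untreated larvae, at 9.18, 11.3 and 11.9 on EO at 10 mg/g, at 13.4, 12.6 and 11.8 on EO at 30 mg/g, at 14.7, 16.6 and 16.1 on D-camphor at 17 mg/g and at 15.4, 12.5 and 9.28 on D-camphor at 41 mg/g. D-camphor at 17 mg/g held its highest mean, and the interval of its difference from untreated larvae was -0.12 to 0.61 log2 units. The toll-like TRINITY_DN3790_c0_g1 and TRINITY_DN2206_c0_g1 ranged from 0.77 to 2.53 and from 0.45 to 3.12 TPM, both highest in untreated replicate 3. The 4 others (TRINITY_DN7559_c0_g1, TRINITY_DN13620_c0_g2, TRINITY_DN20329_c0_g1 and TRINITY_DN9701_c0_g1) had means of 0.246 to 0.42 TPM. Of these, TRINITY_DN7559_c0_g1 stood at 0.60, 0.95 and 1.31 TPM on the untreated diet and at 0 to 0.89 TPM on terpenoid diets, which overlapped. Without a filter on low values its log2 fold change for the mean of the 4 diets was -0.62 (SE 0.22, unadjusted p = 0.0163, adjusted p = 0.602 by limma). Toll-like receptor names outside the search words matched 7 more unigenes, of which 4 were tested. These gave 0 calls, where at most 0.184% of all tested unigenes were called. For the mean of the 4 diets 1 of the 4, and 6.15% of all, had an unadjusted p under 0.05 by limma. This was toll-like receptor 2 (TRINITY_DN15888_c0_g1, mean 12.6 TPM), highest in untreated replicate 3, at -0.34 (SE 0.13, unadjusted p = 0.0195, adjusted p = 0.651 by limma).

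The 3 unigenes found by the word serpin, inhibitors that trap serine proteases, were all too low to test. The best matches were a lancelet, an aphid and a starfish. Serpin 6 precursor (TRINITY_DN42376_c0_g1, matched to the lancelet) stood at 2.61, 1.60 and 0.53 TPM on the untreated diet and at 0.42 to 0.70 TPM in the 12 terpenoid libraries. Untreated replicates 1 and 2 lay above every terpenoid library, and replicate 3 lay among them. Without a filter on low values its log2 fold change for the mean of the 4 diets was -0.70 (SE 0.19, unadjusted p = 0.00275, adjusted p = 0.289 by limma). The serpin B4-like and serpin B6-like unigenes (TRINITY_DN24436_c0_g1 and TRINITY_DN21090_c0_g1) are listed at 0 in 5 and 9 libraries and reached 0.43 and 0.32 TPM.

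Serpin-type inhibitors under other names were more abundant and, like the members, gave 0 calls, where at most 0.184% of all tested unigenes were called in a comparison. Among 9 tested unigenes described as antichymotrypsin-2-like, antitrypsin-like or serine protease inhibitor 27A-, 28Dc- or 88Ea-like, names looked for after the table had been seen, means ran from 1.23 to 449 TPM and the lowest adjusted p over the 8 comparisons was 0.229 by limma. Serine protease inhibitor 88Ea-like (TRINITY_DN1285_c0_g1), named for a Drosophila serpin that restrains Toll signalling, stood at 52.2, 88.0 and 147 TPM in untreated larvae. Untreated replicate 3 was the highest library in 6 of the 9, against 25.8% of all tested unigenes, both without scaling. For antichymotrypsin-2-like TRINITY_DN701_c1_g1, which was lowest in untreated replicate 3 at 4.42 TPM, the estimate for the mean of the 4 diets was 0.57 (SE 0.16, unadjusted p = 0.00372, adjusted p = 0.373 by limma).

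Lysozymes cleave peptidoglycan, and the 2 tested ones had the same highest and lowest library. The lysozyme-like TRINITY_DN2245_c0_g1 stood at 20.1, 14.6 and 44.8 TPM in untreated larvae, at 23.6, 11.3 and 14.96 on EO at 10 mg/g, at 22.5, 21.0 and 14.8 on EO at 30 mg/g, at 22.1, 18.7 and 25.9 on D-camphor at 17 mg/g and at 17.8, 19.6 and 14.9 on D-camphor at 41 mg/g. C-type lysozyme (TRINITY_DN4083_c0_g1) stood at 13.8, 8.98 and 30.2 TPM in untreated larvae, at 19.1, 6.35 and 15.8 on EO at 10 mg/g, at 16.4, 10.8 and 15.6 on EO at 30 mg/g, at 16, 11.5 and 22.1 on D-camphor at 17 mg/g and at 12.4, 15.4 and 8.09 on D-camphor at 41 mg/g. Both were highest in untreated replicate 3 and lowest in EO 10 mg/g replicate 2, so the untreated libraries spanned most of the range of all diets. For the mean of the 4 diets the estimates were -0.34 (95% interval -0.95 to 0.26) and -0.20 (-0.97 to 0.57), and without untreated replicate 3 they were 0.10 and 0.25.

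The low lysozymes were the i-type lysozyme (TRINITY_DN9830_c0_g1), at 0.17 to 0.63 TPM, and 3 others. Lysozyme C-like (TRINITY_DN12792_c2_g2) and lysozyme c-1-like (TRINITY_DN24900_c0_g2) reached 0.72 and 0.30 TPM. The putative lysozyme-like TRINITY_DN9412_c0_g1 is listed at 0 in 7 libraries and was highest in untreated replicate 2 (6.34 TPM) and D-camphor 41 mg/g replicate 1 (3.91 TPM), both of which were also high in spaetzle 4.

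Of the 2 unigenes described as hypothetical antimicrobial peptide, short proteins that damage microbial membranes, TRINITY_DN42713_c0_g1 stood at 2.31, 1.22 and 0.42 TPM on the untreated diet and at 0 to 3.17 TPM on terpenoid diets. Its groups overlapped throughout. TRINITY_DN39123_c0_g1 is listed at 0 in 11 libraries and reached 0.60 TPM.

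A cecropin-A1-like unigene outside the search words, TRINITY_DN1173_c0_g1, was named after its values were seen, because cecropins are antimicrobial peptides of the kind the words missed. It stood at 139 and 79.1 TPM in untreated replicates 1 and 2 and at 2070 TPM in untreated replicate 3. On EO at 10 mg/g it stood at 420.4, 23.2 and 29.5 TPM, on EO at 30 mg/g at 295, 48.9 and 181, on D-camphor at 17 mg/g at 63.9, 31.6 and 155, and on D-camphor at 41 mg/g at 648, 114 and 23.8. Untreated replicate 3 lay at 21.4 times the median of the other 14 libraries, 96.5 TPM. Every diet had libraries above and below that median, though on D-camphor at 17 mg/g the highest was 155 TPM. The log2 fold change for the mean of the 4 diets was -1.60 (SE 1.18, adjusted p = 0.872 by limma).

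Untreated replicate 3 thus stood apart in part of these unigenes, an observation made after their values were seen. It held the highest of the 15 values in 8 of the 16 tested members (50%): peptidoglycan recognition protein S1, the LA-like and LE-like proteins, both tested lysozymes, C-type lectin TRINITY_DN4731_c0_g1 and the toll-like TRINITY_DN3790_c0_g1 and TRINITY_DN2206_c0_g1. The same library was the highest for 25.8% of all tested unigenes, and it had the most unigenes over 1 TPM, 13659, where the others had 11478 to 13488. After median-of-ratios scaling, which divided its values by 1.22, it was the highest for 7 of 16 members (43.8%) and for 5.93% of all tested unigenes. It lay more than 2-fold above the median of the other 14 libraries in 6 of 16 members (37.5%) and 8.79% of the 12469 unigenes with such a median above 0, or 4 of 16 (25%) and 5.58% of all with scaling. Without scaling it lay above that median by any amount in 12 of 16 members (75%) and in 76.6% of the 12469, so there the members did not differ from the table. The abundant glucan-binding pair lay below it, at 0.616 and 0.617 times the median.

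**Figure D3:**
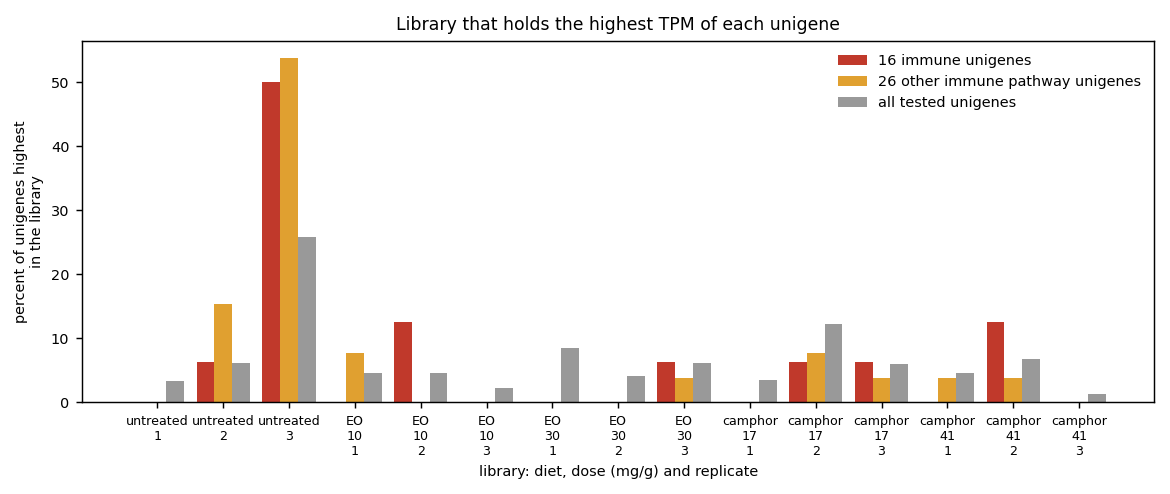
Percent of unigenes whose highest TPM falls in each of the 15 libraries (bars), for the 16 tested immune unigenes, 26 other tested immune pathway unigenes and all 12510 tested unigenes. Untreated replicate 3 holds 50%, 53.8% and 25.8%, which with median-of-ratios scaling are 43.8%, 26.9% and 5.93%.

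Summed fat body, cuticle, haemocyte and midgut markers of that library lay inside the range of the others, and nematode-tagged unigenes were near their highest. Its summed fat body markers, 18 unigenes led by arylphorin storage proteins, stood at 3930 TPM, inside the 1740 to 7420 TPM of all libraries, and its cuticle and moult sum, 1100 TPM, lay near those of untreated replicates 1 and 2 (544 and 1230 TPM). Its haemocyte sum, 358 TPM, lay below that of untreated replicate 2, 457 TPM. Midgut markers, 39 unigenes, stood at 16200 TPM against 11200 to 18700 TPM over all libraries. Unigenes with a nematode species tag, 148 in all, summed to 12400 TPM there, against 8050 and 8590 TPM in untreated replicates 1 and 2. Only EO 30 mg/g replicate 1 had a higher sum, 13300 TPM. These were also the highest and the next highest library for both peptidoglycan recognition protein S1 and the LA-like TRINITY_DN569_c1_g1. Other libraries did not keep this order for S1. With a nematode sum of 10900 TPM, EO 30 mg/g replicate 2 had the lowest S1 value, 30.2 TPM. Untreated replicate 2, with 8590 TPM, had 92.2 TPM of S1. The part of these markers in the values of untreated replicate 3 was not tested.

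The other immune pathway genes also gave 0 calls in every comparison, where at most 0.184% of all tested unigenes were called. A word list covering Toll and IMD signalling, JAK/STAT, phenoloxidases, clip proteases, opsonins and RNA interference matched 43 unigenes, of which 26 were tested. At an unadjusted p under 0.05 limma found 0 higher and 1 lower on EO at 10 mg/g, 0 and 2 on EO at 30 mg/g, 0 and 0 on D-camphor at 17 mg/g, and 0 and 1 on D-camphor at 41 mg/g. Over all tested unigenes, in both directions, the shares were 6.31%, 8.8%, 6.24% and 6.24%, so 0 to 2 of 26 is near or below the background. Their median log2 fold change for the mean of the 4 diets was -0.21, against -0.05 for all tested unigenes. Phenoloxidase-activating factor 2-like TRINITY_DN5865_c0_g2, a clip protease of the melanin cascade, had a log2 fold change of -0.71 (SE 0.25, unadjusted p = 0.0156, adjusted p = 0.619 by limma), with 8.73, 6.26 and 16.1 TPM in untreated larvae. Untreated replicate 3 was the highest library for 14 of the 26, 10 of them among the 13 clip proteases, and for 7 of the 26 after median-of-ratios scaling. Over all tested unigenes it was the highest for 25.8%, and for 5.93% with scaling. The easter-like TRINITY_DN8561_c0_g1, named for the Drosophila protease that cleaves Spaetzle, stood at 14.4 TPM there and at 4.62 TPM or less in the other 14 libraries. The signalling kinase pelle-like (TRINITY_DN7433_c0_g1) and the inhibitor cactus (TRINITY_DN2294_c0_g1), which act inside the cell below Toll, stood there at 1.31 and 1.36 times the median of the other 14. For NF-kappa-B p110 (TRINITY_DN10763_c0_g1) and the tollip-like protein (TRINITY_DN2525_c0_g1) the ratios were 1.13 and 1.24. Over the 12469 unigenes with such a median above 0, the median ratio was 1.21. The clip proteases covered both ends, from 0.964 times for the snake-like TRINITY_DN18288_c0_g1 to 7.31 times for the easter-like TRINITY_DN8561_c0_g1.

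**Figure D4:**
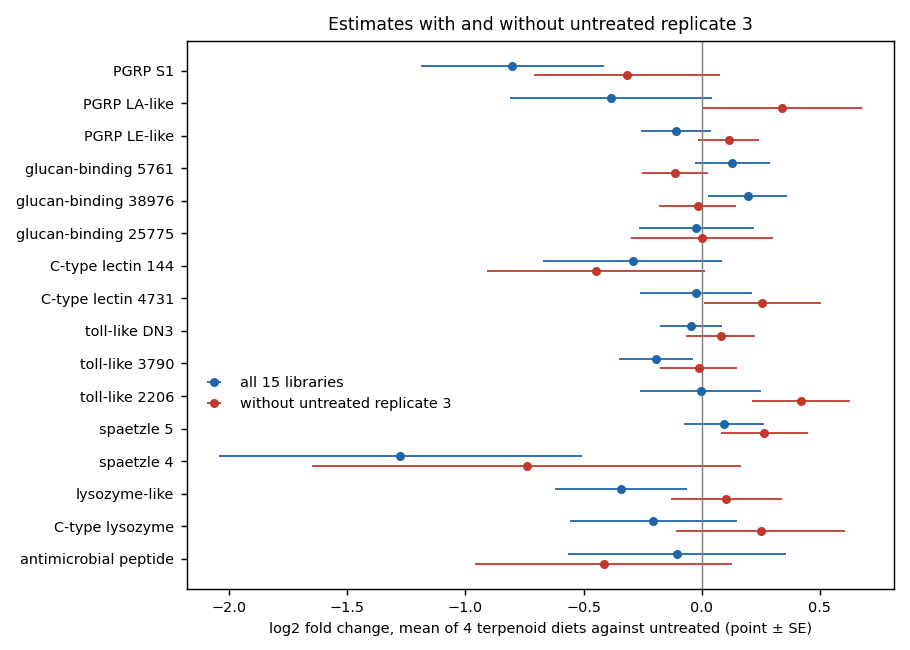
Log2 fold change of the 16 tested immune unigenes for the average of the 4 terpenoid diets against untreated larvae (points, with SE as lines), with all 15 libraries (blue) and without untreated replicate 3 (red). Negative estimates number 13 of 16 with it and 7 of 16 without it, and none was called either way.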

How the data were processed

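Total RNA of whole larvae was extracted with TRIzol and made into libraries with NEBNext Ultra reagents, per the labels' protocols. The deposited values are TPM, scaled by the authors per transcript length and to an equal total per library (column sums of 999999.16 to 1000001.21). The name of the assembler, aligner or counting tool is not given in the sources used here. Columns were matched to libraries by letter and replicate number of the titles, and all were used. Depth is unknown, so no counting interval is given.

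Levels entered the fit as log2(TPM + 1). The 12510 unigenes averaging 1 TPM or more were fitted in limma 3.58.1 (R 4.3.3) with 1 mean per diet, all 15 libraries and a variance trend (residual degrees of freedom 10, prior 2.12). Its moderated test was two-sided, with p-values Benjamini-Hochberg adjusted over all tested unigenes of each of 8 comparisons, with a threshold of 0.05. The method was tested on simulated data. Deviations from the diet means correlated over 0.1 in all 3 same-numbered pairs of EO 10 and EO 30 mg/g (0.559, 0.114 and 0.108). The same held for EO 10 mg/g with D-camphor 17 mg/g (0.149, 0.416 and 0.106), which were not compared, and for no other pair of diets. A fit with a replicate block, from the numbers in the titles and over all 15 libraries, was therefore run as an alternative. The printed estimates, those between the EO doses included, are from fits without this block. No set test was run, and species tags of other organisms were summed for nematodes only.

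Members, word lists and comparisons were chosen with earlier results of these data known. Named members are the up to 4 most abundant of each role, those with the smallest unadjusted p in a comparison and the most variable of each role. All other members were then added so that each is accounted for. The check of untreated replicate 3, cecropin, the serpin-type names, the Toll-like receptor names and peroxidasin-like were chosen after values were seen.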

Additional observations from a re-analysis of the deposited data

How the results depend on the processing

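The count of called members was 0 in all 8 comparisons by limma, and 0 in each of the 174 refits under the alternatives: a pseudocount of 0.1, no filter (30 members tested), a filter at 5 TPM (10 tested), median-of-ratios scaling, a replicate block, the compared groups alone, leaving out each library in turn, and omission of the 3 libraries with the highest scores on the first principal component. The count with the replicate block was 0 in every comparison, so the block changed no call. Between the EO doses the lowest adjusted p of a member with it was 0.999 by limma. Only 10 of all 30 same-numbered pairs of diets had a correlation over 0.1, and the main fit used no pairs. Leaving out 1 library gave 0 to 0. Calls were also rare in the whole table. For the mean of the 4 diets the main fit called 11 of 12510 unigenes, and the fit without a filter 83 of 34452. For D-camphor at 41 mg/g against untreated larvae the main fit called 2, and the compared groups alone gave 0. With so few calls anywhere, a count of 0 among the members says little about them, in the main fit or in these refits. The lowest adjusted p of a member over these refits was 0.116, for spaetzle 4 (TRINITY_DN11168_c0_g1) on EO at 30 mg/g without untreated replicate 1. Fold changes were refitted for the mean of the 4 diets, and in other comparisons only for spaetzle 4, TRINITY_DN25775_c0_g1 and TRINITY_DN3_c0_g1. Many of these refits cannot move an estimate, such as a change of filter or omission of a library of a diet not compared. Of 415 refitted fold changes of members, 411 moved by less than 1 SD of the replicates, a count that such refits raise. The 4 that moved more were spaetzle 4 on EO at 30 mg/g with a pseudocount of 0.1 (-3.86), the LA-like TRINITY_DN569_c1_g1 (0.34) and the toll-like TRINITY_DN2206_c0_g1 (0.42, from -0.00456) for the mean of the 4 diets without untreated replicate 3, and the dose step difference of TRINITY_DN25775_c0_g1 without the 3 libraries (-0.96). The cause was not tested. With 3 libraries per diet and a median SD of 0.41 log2 units, the intervals of most members include changes that this design cannot show. Members under 1 TPM were tested only without the filter.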
